A study of Homo sapiens with 8 samples.

Results

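The angiogenic factors and neuropilins described here are 10 genes, chosen by name: VEGFA, VEGFB, VEGFC, PDGFA, PDGFB, EFNA1, ANGPTL4, THBS1, NRP1 and NRP2. They are 10 of 27475 human genes in the RNA-seq tables, and all 10 were above 0 TPM (the read count of a gene divided by transcript length and scaled to the same sum in every library) in all 8 libraries. No measured value set the choice, but it was made with earlier results of these data known. RNA was collected from RT112 and UM-UC-3, established human bladder cancer cell lines, after transfection for 72 h with 100 pmol of pooled siRNA, either 3 siRNAs that target PAI-1 (siPAI-1) or 3 scrambled ones (Scr). Each of the 4 groups (UM-UC-3 Scr, UM-UC-3 siPAI-1, RT112 Scr and RT112 siPAI-1) holds 2 libraries, so that all groups share the transfection and none is an untreated culture. Each line was grown without other cell types, in 1 of 2 media; the labels do not tie the medium to the line, so line and medium cannot be told apart. The first comparison asked how the lines differ in these genes, and the second what the knock-down of PAI-1 changed within each line.

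Vascular endothelial growth factors are secreted ligands that act on receptor kinases of blood and lymphatic endothelium, with VEGF-A as the main driver of vessel sprouting, VEGF-C as the main lymphatic factor and VEGF-B as a ligand of FLT1. Neuropilins are transmembrane co-receptors without a kinase domain. They bind VEGF ligands and class 3 semaphorins and work together with VEGF receptors or plexins. Platelet-derived growth factors recruit pericytes and fibroblasts to vessels, ephrin-A1 is a membrane-bound ligand of EphA2, ANGPTL4 inhibits lipoprotein lipase and acts on vessel permeability, and thrombospondin-1 (THBS1) is a matrix protein known as an inhibitor of angiogenesis. A tumour cell line shows the supply of such factors and holds no vessels that could respond to them.

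RefSeq promoter entries (build GRCh38.p14) were found for 7 of the 10 members (EFNA1, NRP2, VEGFC, PDGFA, VEGFB, THBS1 and ANGPTL4). Of these, 4 are shown because the results turn on their genes: ANGPTL4 and THBS1 had the largest differences between the lines, in opposite directions, EFNA1 was higher in RT112 as THBS1 was, and VEGFB did not pass the test between the lines. Each is the 250 bases before the annotated start on the plus strand, at chr19:8363905-8364154 for ANGPTL4, chr15:39580829-39581078 for THBS1, chr1:155127626-155127875 for EFNA1 and chr11:64234334-64234583 for VEGFB. Capitals mark matches to 6 motifs on either strand. The TATA box was searched as TATAAA, and the CCAAT box by the letters of its name. The GC box, which binds SP1, was searched as GGGCGG, and the core of the hypoxia response element as ACGTG. An AP-1 site was read as TGACTCA, and the site of TEAD factors as GGAATG.
ANGPTL4: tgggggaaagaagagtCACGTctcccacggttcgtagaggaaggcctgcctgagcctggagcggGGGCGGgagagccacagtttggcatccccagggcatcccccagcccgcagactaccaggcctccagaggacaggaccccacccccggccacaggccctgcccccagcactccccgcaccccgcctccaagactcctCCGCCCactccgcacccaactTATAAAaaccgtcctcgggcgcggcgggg
THBS1: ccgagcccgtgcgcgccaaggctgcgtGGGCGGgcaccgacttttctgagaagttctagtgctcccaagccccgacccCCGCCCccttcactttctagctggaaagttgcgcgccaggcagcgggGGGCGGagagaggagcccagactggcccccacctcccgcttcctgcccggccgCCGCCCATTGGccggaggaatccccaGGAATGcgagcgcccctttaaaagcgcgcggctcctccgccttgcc
EFNA1: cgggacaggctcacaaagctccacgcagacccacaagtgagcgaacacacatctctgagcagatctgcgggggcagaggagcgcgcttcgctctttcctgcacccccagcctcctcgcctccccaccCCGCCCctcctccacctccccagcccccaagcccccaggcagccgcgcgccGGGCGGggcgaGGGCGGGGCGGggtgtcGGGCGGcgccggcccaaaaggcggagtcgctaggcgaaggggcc
VEGFB: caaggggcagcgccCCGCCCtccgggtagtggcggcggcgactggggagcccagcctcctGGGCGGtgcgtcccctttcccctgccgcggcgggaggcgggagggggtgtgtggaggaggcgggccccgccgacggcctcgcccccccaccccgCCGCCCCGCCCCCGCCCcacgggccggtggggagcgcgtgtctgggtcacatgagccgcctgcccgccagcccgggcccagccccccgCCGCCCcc

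The promoter of ANGPTL4 held 1 TATA box 29 bases before the start, 2 GC boxes, and 1 hypoxia core on the opposite strand 234 bases before the start. That of THBS1 held 4 GC boxes, 1 CCAAT box on the opposite strand and 1 TEAD site 46 bases before the start. EFNA1 and VEGFB held GC boxes only, 5 and 6 of them, and some of these overlap. Of 35116 promoters of the same length, 10.7% held the TATA box, 32.0% the CCAAT box, 42.6% the GC box, 18.5% the hypoxia core, 4.2% the AP-1 site and 11.9% the TEAD site. CpG pairs numbered 16 in ANGPTL4, 24 in THBS1, 24 in EFNA1 and 30 in VEGFB, against a median of 11 over all promoters. A match describes the letters only.

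Depth, estimated from the steps of low FPKM values, was 29.3 to 34.2 M reads per library (M for mega). The lines carried the markers of different cell states. Over all genes, 25.0% were called higher in RT112 Scr and 26.5% lower (adjusted p under 0.05 in limma). All 8 epithelial markers were higher in RT112, with a summed level of 8104 to 8328 TPM in Scr against 212 to 227 TPM in UM-UC-3. Of 8 mesenchymal markers, 5 were called lower in RT112 Scr and 2 higher. Vimentin (VIM), among the lower, was at 7.81 and 6.04 TPM in RT112 Scr against 3142.15 and 2852.45 TPM in UM-UC-3 Scr. The higher ones were SNAI2, at 68.2 and 70.41 against 16.44 and 15.73 TPM, and FN1, at 112.61 and 120.39 against 64.29 and 70.56 TPM. CDH2 was not called, at 18.19 and 20.58 against 10.61 and 9.22 TPM. Of 10 endothelial markers, 3 were called higher (CDH5, ESAM and EGFL7) and 3 lower (ERG, TIE1 and ROBO4) in RT112 Scr, near the shares over all genes. CDH5 was listed at 0 in all UM-UC-3 libraries and reached 0.63 TPM in RT112, and VWF and PECAM1 reached at most 0.37 and 1.76 TPM in any library, while EGFL7 carried most of the summed level (28.47 to 47.46 TPM). ESAM was at 6.79 and 5.93 TPM in RT112 Scr and 0.69 and 0.51 TPM in UM-UC-3 Scr, and TIE1 reached 5.94, ERG 2.66 and ROBO4 2.71 TPM in UM-UC-3, with 0.07 TPM or less in RT112. Of 5 blood cell markers, 4 were tested, with 1 called higher (CD3E, at most 0.2 TPM) and 2 lower in RT112 Scr. The latter were CD68, at 16.43 and 19.5 TPM against 278.72 and 274.65 TPM, and CD14, at most 0.5 TPM. PTPRC was at most 0.03 TPM and HBB at 0. The part of these states in the differences described next was not tested.

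**Figure D1:**
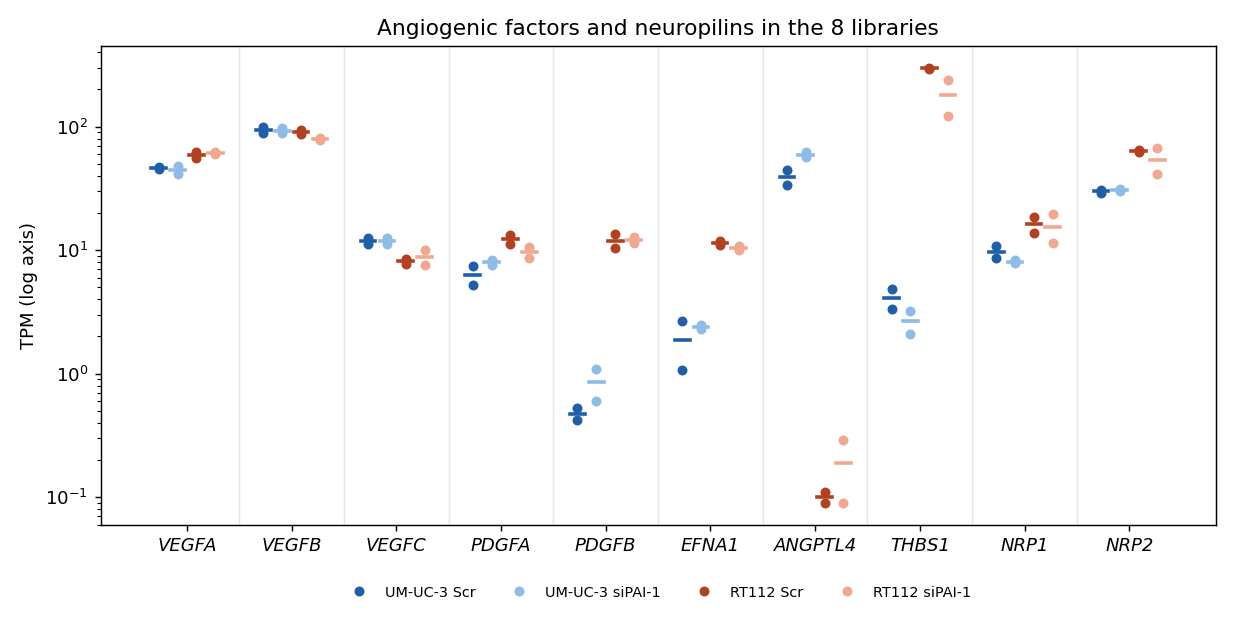
TPM of each gene (log axis) in the 8 libraries; points are libraries, short bars the means of 2 libraries, colours the 4 groups. ANGPTL4 lies at 33.76 TPM or above in UM-UC-3 and at 0.29 TPM or below in RT112, THBS1 shows the opposite order, and VEGFA, VEGFB and VEGFC keep a similar height in all groups.

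Between the lines in Scr, 8 of the 10 genes passed the test: THBS1, PDGFB, EFNA1, NRP2, PDGFA and VEGFA were higher in RT112, and ANGPTL4 and VEGFC were higher in UM-UC-3. Called means an adjusted p under 0.05 in limma on log2(TPM + 0.1). The lines differ in much of the transcriptome: 25.0% of 20274 genes tested were called higher and 26.5% lower in RT112 (51.5% in either direction). These shares include genes of low level. After a filter on level (mean TPM of 1 or more), which kept all 10 members, 9029 of 12803 genes were called in Scr and 9052 in siPAI-1. In each, 9 members were called. Whether members were called more often than other genes of similar level was not tested. Without that filter and with a difference of at least 2-fold as well, 5 members were called in Scr (ANGPTL4, EFNA1, NRP2, PDGFB and THBS1), against 31.0% of all genes. The 2 Scr libraries of RT112 lay apart from those of UM-UC-3 for 9 members, all but VEGFB, against 68.5% of all genes. The siPAI-1 contrast takes its means from other libraries but shares the fit and its estimate of spread with the Scr contrast, so the 2 sets of calls are not separate. In it, 6 members were called higher in RT112 (26.1% of all genes) and 1 lower (26.0%), 7 in either direction (52.1%), of which 4 also reached 2-fold (31.7%). There the libraries of the lines lay apart for all 10 members, against 70.4% of all genes. The labels do not tie the 2 libraries of a group to separate experiments, so the p-values measure the spread between these samples, which may be technical.

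The VEGF ligands were the most even group. VEGFA (ENSG00000112715.20, chr6:43770211-43786487) was at 45.52 and 47.14 TPM in UM-UC-3 Scr, 48.29 and 41.22 TPM in UM-UC-3 siPAI-1, 55.98 and 62.16 TPM in RT112 Scr and 59.53 and 61.67 TPM in RT112 siPAI-1. All 4 RT112 libraries lay above all 4 UM-UC-3 libraries, but by a small step: means of 59.1 ± 4.37 and 46.3 ± 1.15 TPM in Scr (SD, n = 2) gave 1.27-fold. On the log2 scale the difference in Scr was 0.35 with an SE of 0.094 (limma adjusted p = 0.0188), and in siPAI-1 it was 0.44 (adjusted p = 0.00685). The Scr call was lost without RT112 Scr replicate 2 or without either UM-UC-3 Scr library (adjusted p from 0.0722 to 0.112), and the siPAI-1 call without RT112 siPAI-1 replicate 2 (0.0550).

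VEGFB (ENSG00000173511.9, chr11:64234584-64239264) had the highest level of the 3 VEGF ligands in every library. It was at 88.04 and 98.87 TPM in UM-UC-3 Scr, 88.07 and 97.61 TPM in UM-UC-3 siPAI-1, 93.81 and 86.43 TPM in RT112 Scr and 80.3 and 77.41 TPM in RT112 siPAI-1. The Scr libraries of the lines overlapped, and the log2 difference of -0.05 had a 95% interval from -0.25 to 0.15 (limma adjusted p = 0.664). In siPAI-1 the RT112 libraries lay below those of UM-UC-3, with a log2 difference of -0.23 (adjusted p = 0.0560).

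VEGFC (ENSG00000150630.3, chr4:176683538-176792922) was at 11.26 and 12.53 TPM in UM-UC-3 Scr, 11.14 and 12.63 TPM in UM-UC-3 siPAI-1, 7.74 and 8.44 TPM in RT112 Scr and 9.98 and 7.51 TPM in RT112 siPAI-1. Its mean was 1.47-fold higher in UM-UC-3 in Scr, and no RT112 library reached a UM-UC-3 library. The log2 difference was -0.55 with an SE of 0.167 in Scr (limma adjusted p = 0.0304) and -0.45 in siPAI-1 (adjusted p = 0.0613). The Scr call was lost when any 1 of the 4 Scr libraries was left out (adjusted p from 0.0744 to 0.145), and in siPAI-1 the gene passed without RT112 siPAI-1 replicate 1 (0.0204). Together VEGFA, VEGFB and VEGFC summed to between 144.8 and 158.5 TPM in all 8 libraries, of which VEGFB made up 52.8% to 64.4%.

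The 2 PDGF ligands differed in how far apart the lines were. PDGFB (ENSG00000100311.16, chr22:39223359-39244982) was at 0.53 and 0.42 TPM in UM-UC-3 Scr, 0.6 and 1.1 TPM in UM-UC-3 siPAI-1, 13.48 and 10.31 TPM in RT112 Scr and 11.45 and 12.77 TPM in RT112 siPAI-1. The groups of the lines were far apart, with a 25.0-fold higher mean in RT112 Scr and a 14.2-fold higher mean in RT112 siPAI-1. The log2 differences were 4.38 with an SE of 0.315 (limma adjusted p = 4.49e-05) and 3.73 (adjusted p = 9.02e-05).

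PDGFA (ENSG00000197461.13, chr7:497258-520700) was at 7.39 and 5.21 TPM in UM-UC-3 Scr, 8.39 and 7.61 TPM in UM-UC-3 siPAI-1, 13.28 and 11.3 TPM in RT112 Scr and 8.67 and 10.64 TPM in RT112 siPAI-1. RT112 lay above UM-UC-3 in Scr by 1.95-fold, and the gap was narrower in siPAI-1, where the lowest RT112 library (8.67 TPM) was close to the highest UM-UC-3 library (8.39 TPM). The log2 difference was 0.97 with an SE of 0.205 in Scr (limma adjusted p = 0.00682, and 0.0574 without RT112 Scr replicate 1) and 0.26 in siPAI-1 (adjusted p = 0.332). In UM-UC-3 Scr, PDGFA stood above PDGFB by level, while in RT112 Scr the libraries of the 2 genes overlapped.

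EFNA1 (ENSG00000169242.11, chr1:155127876-155134899), the ephrin ligand, was at 1.07 and 2.66 TPM in UM-UC-3 Scr, 2.28 and 2.5 TPM in UM-UC-3 siPAI-1, 10.92 and 11.79 TPM in RT112 Scr and 9.99 and 10.73 TPM in RT112 siPAI-1. The 4 RT112 libraries lay close together and above all of UM-UC-3, whose Scr libraries differed 2.36-fold from each other. The mean was 6.09-fold higher in RT112 in Scr and 4.33-fold higher in siPAI-1. On the log2 scale these were differences of 2.67 with an SE of 0.375 (limma adjusted p = 0.00102) and 2.07 (adjusted p = 0.00334). The Scr difference was 2.05 without UM-UC-3 Scr replicate 1 and 3.29 without replicate 2.

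ANGPTL4 (ENSG00000167772.11, chr19:8364155-8374370) was detected mainly in UM-UC-3. It was at 44.32 and 33.76 TPM in UM-UC-3 Scr and at 62.04 and 56.17 TPM in UM-UC-3 siPAI-1, where its rank by mean level among the 10 genes was 3 and then 2. In RT112 it was at 0.09 and 0.11 TPM in Scr and at 0.09 and 0.29 TPM in siPAI-1, the lowest of the 10. The RT112 Scr values correspond to about 7 reads over both libraries at the estimated depth, an upper figure that takes the longest transcript of the gene. The ratio of the means, 390-fold, thus has a wide 95% interval from counting error alone, from 189 to 971. With fewer reads this interval and that in siPAI-1 would be wider. The ratio in siPAI-1 was 311-fold, with an interval from 185 to 569; it was 657-fold without RT112 siPAI-1 replicate 2 and 204-fold without replicate 1. With 1 library left out, the Scr ratio ranged from 338 to 443. Because 0.1 was added before the logarithm, the fitted log2 difference of -7.60 with an SE of 0.357 in Scr (limma adjusted p = 8.53e-06) and of -7.76 in siPAI-1 (adjusted p = 7.69e-06) understates the ratio of the means.

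THBS1 (ENSG00000137801.10, chr15:39581079-39599466) showed the opposite pattern. It was at 3.32 and 4.86 TPM in UM-UC-3 Scr, 2.09 and 3.24 TPM in UM-UC-3 siPAI-1, 299.34 and 293.09 TPM in RT112 Scr and 120.77 and 239.35 TPM in RT112 siPAI-1. The RT112 libraries all lay above 100 TPM and the UM-UC-3 libraries below 5 TPM. The mean was 72.4-fold higher in RT112 in Scr and 67.6-fold higher in siPAI-1, with log2 differences of 6.17 (SE 0.358, limma adjusted p = 1.91e-05) and 5.98 (adjusted p = 2.12e-05). THBS1 was the highest of the 10 genes in RT112, where it made up 34.2% to 52.4% of their summed TPM, against 0.796% to 2.00% in UM-UC-3. The ratio of VEGFA to THBS1 was thus 9.7 to 23.1 in the UM-UC-3 libraries and 0.187 to 0.493 in the RT112 libraries. FSIP1, on the opposite strand, shares exonic bases with THBS1 in the annotation and was listed at 0.37 to 1.32 TPM, and whether the counting used strand is not given in the sources used here.

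Both neuropilins stood at a higher mean in RT112. NRP2 (ENSG00000118257.16, chr2:205682501-205798131) was at 30.76 and 29.09 TPM in UM-UC-3 Scr, 31.41 and 30.21 TPM in UM-UC-3 siPAI-1, 64.33 and 62.08 TPM in RT112 Scr and 41.44 and 66.67 TPM in RT112 siPAI-1. All RT112 libraries were above all UM-UC-3 libraries, and RT112 siPAI-1 replicate 1 was the lowest of the RT112 libraries. The mean was 2.11-fold higher in RT112 in Scr (log2 difference 1.08, SE 0.199, limma adjusted p = 0.00372) and 1.75-fold higher in siPAI-1 (0.77, adjusted p = 0.0161, and 0.0937 and 0.108 when replicate 1 or 2 of UM-UC-3 siPAI-1 was left out).

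NRP1 (ENSG00000099250.17, chr10:33177493-33334667) was at 10.79 and 8.59 TPM in UM-UC-3 Scr, 8.26 and 7.87 TPM in UM-UC-3 siPAI-1, 18.65 and 13.79 TPM in RT112 Scr and 11.33 and 19.45 TPM in RT112 siPAI-1. RT112 lay above UM-UC-3 in every library, but the spread within RT112 was wide. The log2 difference was 0.73 with an SE of 0.277 in Scr (limma adjusted p = 0.0665) and 0.87 in siPAI-1 (adjusted p = 0.0356). The latter call was lost without RT112 siPAI-1 replicate 2 (0.182) and without replicate 1 (0.144) or 2 (0.166) of UM-UC-3 siPAI-1. NRP2 exceeded NRP1 in every library, by 2.85 to 4.5 times. Genes annotated on the opposite strand share exonic bases with NRP1, NRP2 and VEGFA as well, and with the strand setting not given, reads of both strands may have been counted together.

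**Figure D2:**
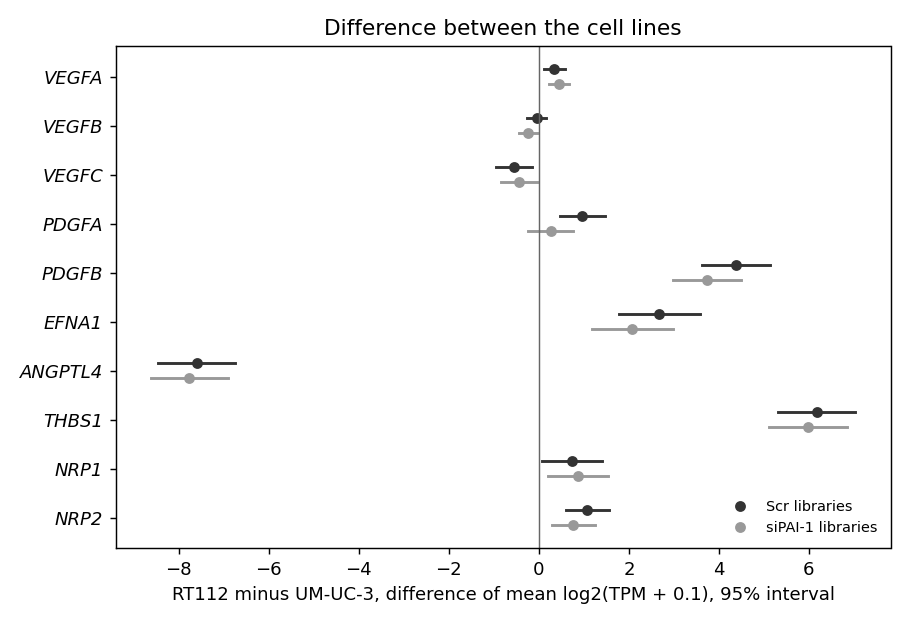
Difference of mean log2(TPM + 0.1) between RT112 and UM-UC-3 (horizontal axis, RT112 minus UM-UC-3) for each gene, in the Scr libraries (dark) and the siPAI-1 libraries (grey); bars are 95% intervals from limma. THBS1, PDGFB and EFNA1 lie far to the right at 6.17, 4.38 and 2.67 in Scr, ANGPTL4 far to the left at -7.60, and VEGFB spans 0 in Scr.

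In order of mean level, UM-UC-3 Scr ran VEGFB (93.5 TPM), VEGFA, ANGPTL4, NRP2, VEGFC, NRP1, PDGFA, THBS1, EFNA1 and PDGFB (0.475 TPM), with no overlap between the 2 libraries of any gene and those of its neighbour. RT112 Scr ran THBS1 (296 TPM), VEGFB, NRP2, VEGFA, NRP1, PDGFA, PDGFB, EFNA1, VEGFC and ANGPTL4 (0.1 TPM). Here NRP2 and VEGFA did not differ beyond their spread, nor did PDGFA and PDGFB, nor PDGFB and EFNA1. These comparisons between genes are of TPM, which is per length.

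Within UM-UC-3, no member passed the test between siPAI-1 and Scr, and none of the 18528 genes tested did (0% called; without adjustment, p was under 0.05 for 482 genes with a higher mean and 632 with a lower one). By the unadjusted p, 1 member passed, against 6.01% of all genes. This was ANGPTL4, with a mean of 39.0 ± 7.47 TPM in Scr and 59.1 ± 4.15 TPM in siPAI-1 (SD, n = 2), 1.51-fold higher. Its log2 difference was 0.61 with a 95% interval from 0.24 to 0.98 (limma adjusted p = 0.791). Under the alternatives with 2 libraries in each group, ANGPTL4 passed the unadjusted 0.05 in 7 of 8. It did not in the fit over all 8 libraries, where the interval was -0.25 to 1.46 (limma unadjusted p = 0.135). With 1 library left out, it passed the unadjusted 0.05 in 1 of 4 fits, that without UM-UC-3 Scr replicate 1. By both an unadjusted p under 0.05 and a 2-fold difference, no member was called, against 1.95% of all genes. The 2 siPAI-1 libraries lay above both Scr libraries for ANGPTL4, PDGFA and PDGFB (15.1% of all genes) and below both for THBS1 and NRP1 (17.1%).

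Of these, PDGFA had a log2 difference of 0.36 (95% interval -0.20 to 0.92) and PDGFB, at about 1 TPM or less, 0.68 (-0.53 to 1.89). THBS1 had -0.61 (-1.48 to 0.27) and NRP1 -0.25 (-0.68 to 0.18). For the other members the libraries of both siRNAs overlapped. The intervals were narrow for VEGFA (-0.30 to 0.19), VEGFB (-0.23 to 0.22), VEGFC (-0.34 to 0.34) and NRP2 (-0.16 to 0.24) and wide for EFNA1 (-0.77 to 1.71). A change of 2-fold, 1 on the log2 scale, lies outside the interval for those 4 genes.

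Within RT112, again no member passed the test, nor did any of the 18437 genes tested (0% called; without adjustment, p was under 0.05 for 617 genes with a higher mean and 446 with a lower one). By the unadjusted p, 1 member passed, against 5.77% of all genes. This was VEGFB, with a mean of 90.1 ± 5.22 TPM in Scr and 78.9 ± 2.04 TPM in siPAI-1 (SD, n = 2) and a log2 difference of -0.19 (95% interval -0.37 to -0.01, limma adjusted p = 0.838). With 1 library left out, it passed in 1 of 4 fits, that without RT112 Scr replicate 2. No member reached 2-fold as well (2.22% of all genes). Under the alternatives with 2 libraries in each group, VEGFB passed the unadjusted 0.05 in 5 of 8. The siPAI-1 libraries lay below both Scr libraries for THBS1, VEGFB, PDGFA and EFNA1 (14.7% of all genes). The libraries of the other 6 members overlapped, so the siRNAs lay apart for 4 members in all, against 32.7% of all genes in either direction.

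THBS1 had the largest difference of means in RT112: 296 ± 4.42 TPM in Scr and 180 ± 83.8 TPM in siPAI-1 (SD, n = 2). The log2 difference of -0.80 had a 95% interval from -1.66 to 0.06 (limma adjusted p = 0.838). Its interval depended on the setting. With the filter at a mean of 1 TPM it was -1.47 to -0.13 (limma unadjusted p = 0.0255, adjusted p = 0.753). With a replicate block it was -1.51 to -0.09 (limma unadjusted p = 0.0350, adjusted p = 0.882). The 2 siPAI-1 libraries stood at 40.8% and 80.8% of the Scr mean, a 1.98-fold gap that was larger than in 97.1% of genes at 1 TPM or more. Without replicate 1 the log2 difference was -0.31, and without replicate 2 it was -1.29.

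RT112 siPAI-1 replicate 1 was also low for both neuropilins. NRP2 stood at 65.6% of the Scr mean in it and at 105% in replicate 2, and NRP1 at 69.9% and 120%. The log2 differences over both libraries were -0.27 for NRP2 (95% interval -0.88 to 0.35) and -0.11 for NRP1 (-0.92 to 0.70), and without replicate 1 they were 0.08 and 0.28. Of the 8 mesenchymal markers, CDH2 was at 39.5% and 92.5%, FN1 at 50.0% and 93.1% and SNAI2 at 61.9% and 90.5%, and the summed level of all 8 was 115.7 and 197.8 TPM against 207.5 to 218.0 TPM in Scr, mostly FN1 and SNAI2. The other 5 were low in RT112, at 6.28 and 8.09 TPM for VIM, 0.21 and 0.26 TPM for ZEB1, 0.17 and 0.08 TPM for ZEB2, 0.19 and 0.18 TPM for SPARC and 0.03 TPM in both for TWIST1. These first 3 markers were picked after their values were seen, and their part in the values of THBS1, NRP1 and NRP2 was not tested. VEGFA, at 101% and 104%, and VEGFB, at 89.1% and 85.9%, did not share this gap. Of the other members, PDGFA was at 70.5% and 86.6%, EFNA1 at 88.0% and 94.5% and PDGFB at 96.3% and 107%. VEGFC went the other way, at 123% and 92.8%, and ANGPTL4, near the detection limit, was at 90.0% and 290%.

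**Figure D3:**
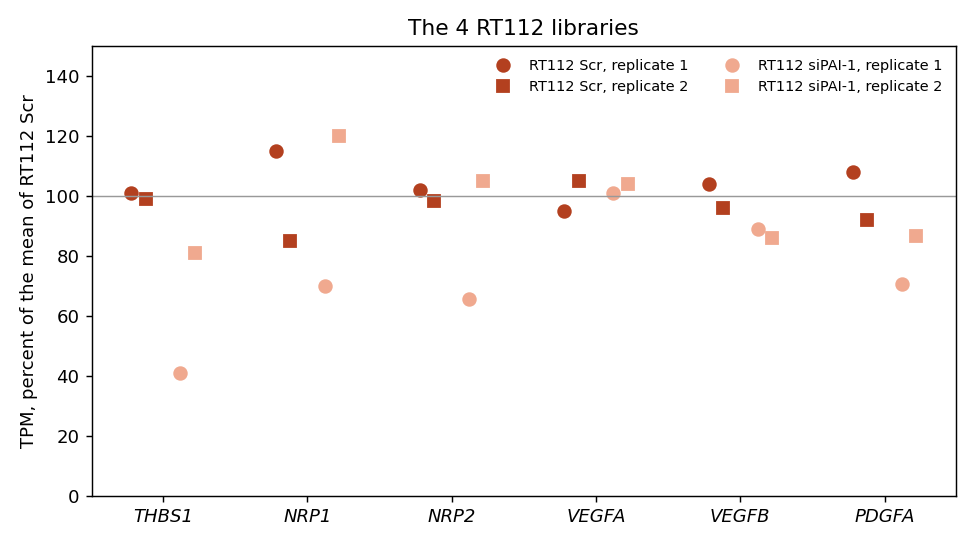
TPM of 6 genes in the 4 RT112 libraries as percent of the mean of the 2 Scr libraries (vertical axis, starting at 0); circles are replicate 1, squares replicate 2, dark Scr and light siPAI-1. THBS1, NRP1 and NRP2 are lower in siPAI-1 replicate 1 (40.8%, 69.9% and 65.6%) than in replicate 2, while VEGFA and VEGFB are alike in both. PDGFA is lower in siPAI-1 replicate 1 as well (70.5% against 86.6%).

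The remaining members in RT112 had log2 differences of 0.04 for VEGFA (95% interval -0.17 to 0.25), 0.10 for VEGFC (-0.42 to 0.62), 0.04 for PDGFB (-0.43 to 0.51), -0.35 for PDGFA (-0.80 to 0.11) and -0.13 for EFNA1 (-0.47 to 0.21). ANGPTL4 stayed near the detection limit, with an interval from -0.86 to 1.76. The difference between the knock-down effects of the lines was tested by an interaction term, and no member passed (limma with adjustment over 20274 genes, of which 0% were called; without adjustment, p was under 0.05 for 811 with a positive and 559 with a negative interaction). By the unadjusted p, PDGFA passed, against 6.76% of all genes, but in only 1 of 8 fits with 1 library left out, that without UM-UC-3 Scr replicate 1. Both siPAI-1 libraries were above Scr in UM-UC-3 and both were below in RT112, with an interaction of -0.71 on the log2 scale (95% interval -1.40 to -0.01, adjusted p = 0.73). Such an opposite shift without overlap was found in 5.14% of genes. THBS1 was below Scr without overlap in both lines, and 5.02% of genes shifted in the same direction in both.

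**Figure D4:**
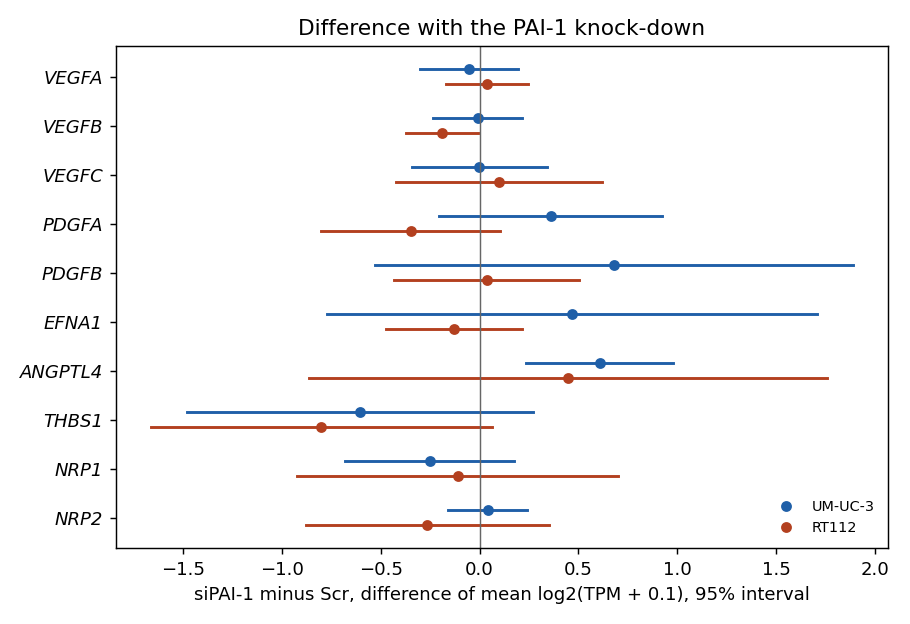
Difference of mean log2(TPM + 0.1) between siPAI-1 and Scr (horizontal axis, siPAI-1 minus Scr) in UM-UC-3 (blue) and RT112 (red); bars are 95% intervals from limma. ANGPTL4 in UM-UC-3 (0.24 to 0.98) and VEGFB in RT112 (-0.37 to -0.01) are the only intervals that leave out 0, and neither passed the adjusted test.

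The receptors and partners of these factors were examined as lists. Among 9 further VEGF and PDGF ligands and receptors, 1 was called higher in RT112 Scr and 3 lower (25.0% and 26.5% of all genes; median log2 difference -0.19, against 0 over all genes). Placental growth factor (PGF), a ligand of FLT1, was at 16.94 and 17.54 TPM in RT112 Scr and 4.95 and 3.58 TPM in UM-UC-3 Scr, a log2 difference of 2.01 (limma adjusted p = 9.98e-05). PDGFC was at 3.26 and 2.43 TPM against 26.07 and 24.1 TPM (log2 difference -3.11), and FLT4, the receptor of VEGF-C, was listed at 0 in all RT112 libraries and at 3.41 and 3.16 TPM in UM-UC-3 Scr. The PDGF receptor PDGFRA was lower as well. FLT1 and KDR, the main VEGF receptors of endothelium, were at most 0.03 TPM in any library, and they were singled out after their values were seen.

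Of 13 neuropilin partners, 9 were called higher and 2 lower in RT112 Scr (25.0% and 26.5% of all genes), with a median log2 difference of 1.34. The semaphorin SEMA3B was at 39.12 and 38.41 TPM in RT112 Scr and 0.28 and 0.18 TPM in UM-UC-3 Scr (log2 difference 6.90, limma adjusted p = 1.98e-06). SEMA3E was at 9.87 and 9.31 TPM against 0.04 and 0 TPM (6.36), and the receptor PLXNA2 at 25.48 and 25.32 TPM against 1.23 and 0.94 TPM (4.44). The members highest by level differed less. SEMA3C was at 98.09 and 110.02 TPM against 67.2 and 63.87 TPM (0.66), PLXNA1 at 63.12 and 83.53 TPM against 26.45 and 21.26 TPM (1.61), and GIPC1, an adaptor that binds the neuropilin tail, at 110.65 and 114.5 TPM against 136.21 and 126.21 TPM (-0.22).

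**Figure D5:**
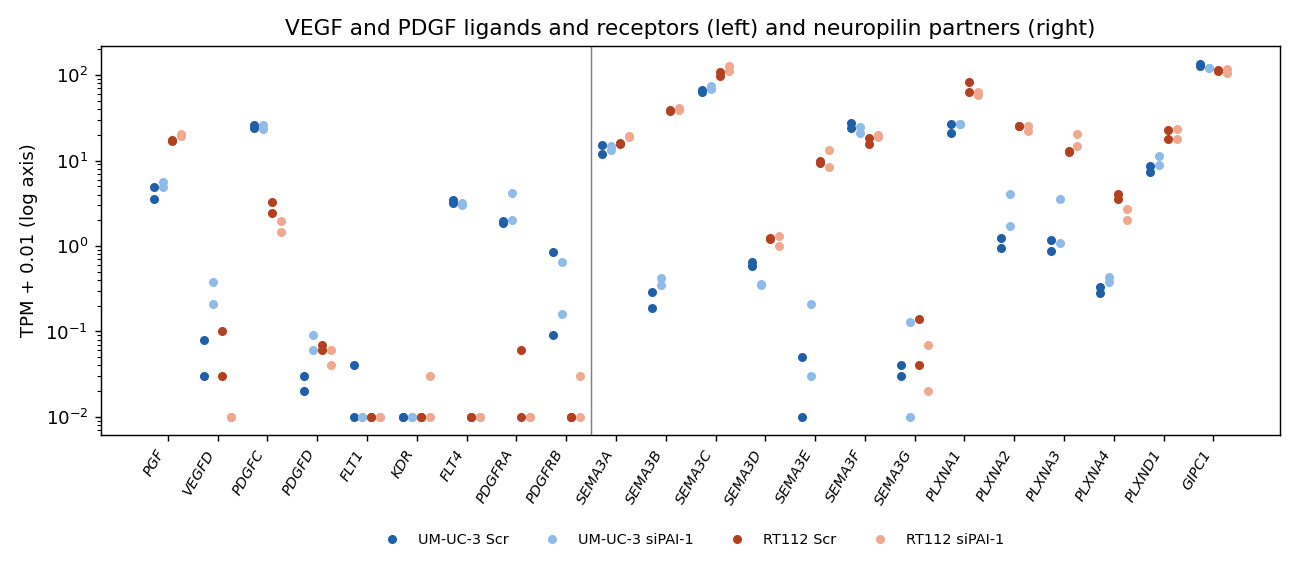
TPM + 0.01 (log axis) of 9 VEGF and PDGF ligands and receptors (left of the line) and 13 neuropilin partners (right) in the 8 libraries, coloured by group. SEMA3B, SEMA3E and PLXNA2 are high in RT112 and low in UM-UC-3, PDGFC and FLT4 show the opposite, and FLT1 and KDR lie at the bottom of the axis in both lines.

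Of 13 ephrin-A ligands and EphA receptors, 12 were tested, 4 called higher and 6 lower in RT112 Scr (25.0% and 26.5% of all genes, median log2 difference -0.55). EPHA2, the main receptor of ephrin-A1, was the highest by level in both lines, at 69.07 and 73.05 TPM in RT112 Scr and 95.96 and 87.74 TPM in UM-UC-3 Scr (log2 difference -0.37, limma adjusted p = 0.0103). EPHA1 was at 19.05 and 20.94 TPM against 0.08 and 0.3 TPM, while EPHA5 was at 0.01 and 0.01 TPM against 19.59 and 19.56 TPM. EPHA3 and EPHA7 were also lower in RT112.

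Of 6 thrombospondins and their receptors, 1 was called higher (THBS3) and 1 lower (THBS2), against 25.0% and 26.5% of all genes, with a median of 0.05. CD47, a receptor of thrombospondin-1, was at 26.39 and 27.68 TPM in RT112 Scr and 38.91 and 30.1 TPM in UM-UC-3 Scr (limma adjusted p = 0.179), and CD36 stayed at or below 1.26 TPM. Of 12 angiopoietins, TIE receptors and angiopoietin-like proteins, 10 were tested, 1 was called higher and 4 lower in RT112 Scr (25.0% and 26.5% of all genes, median -0.46). ANGPT1, the agonist of the TIE2 receptor, was at 5.24 and 5.06 TPM in RT112 Scr and 19.78 and 20.42 TPM in UM-UC-3 Scr (log2 difference -1.94, adjusted p = 4.01e-05). The angiopoietin-like genes of this list, which leaves out ANGPTL4, were at most 0.24 TPM in any library.

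VEGFA, ANGPTL4 and EFNA1 are known targets of hypoxia-inducible factors, and they did not order the lines alike. A list of 16 hypoxia genes held factors of the response, such as HIF1A and EPAS1, beside target genes. Of the 16, 4 were called higher and 9 lower in RT112 Scr (25.0% and 26.5% of all genes, median log2 difference -0.62). The factors HIF1A (512.03 and 508.54 against 180.87 and 178.98 TPM, log2 difference 1.50) and EPAS1 (335.41 and 352.29 against 95.72 and 101.53 TPM, 1.80) were among the higher ones. BNIP3, a mitochondrial target of HIF, was among the lower, at 18.67 and 13.54 TPM against 215.07 and 174.96 TPM (-3.60, limma adjusted p = 7.02e-06). LDHA, the highest by level, was at 3361.57 and 3159.03 TPM against 6118.4 and 5356.85 TPM (-0.81), and PGK1 at 962.64 and 894.73 TPM against 974.21 and 907.62 TPM (-0.02). No gene of any of these 6 lists passed the adjusted test between siPAI-1 and Scr in either line. None of all genes tested did (0% of 18528 in UM-UC-3 and 0% of 18437 in RT112), so this is nothing particular to the lists.

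Genes with the most similar pattern were looked for among the 10229 genes whose mean was 5 TPM or more, by Pearson's r of log2 values over the 8 libraries, which share the line and the depth of each library. For NRP2 these were LY6K (r = 0.988) and PLEC (0.988), and for NRP1 RPUSD1 (0.977) and BRPF3 (0.966). For PDGFA they were DTL (0.977) and BMPR2 (0.967), for VEGFA TAB1 (0.989) and AP3S2 (0.988), and for VEGFC BTG3 (0.983) and GSTO1 (0.980). The genes with the largest line differences had many equals: r was over 0.95 for 2238 genes with ANGPTL4, 2177 with PDGFB, 2129 with THBS1 and 986 with EFNA1, against 10 with PDGFA and 18 with NRP1. The closest genes were SLC25A20 for ANGPTL4, NT5C for PDGFB and CACNG4 for THBS1. In bulk libraries a lower share of cells that transcribe a gene and a lower level per cell cannot be told apart.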

How the data were processed

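RNA of 8 libraries was sequenced in single reads of 75 bases from a stranded mRNA kit. The paper's methods name cutadapt, STAR, hg38 and featureCounts, and the submitters' processing notes name STAR 2.5.0, RSEM 1.2.25 and GRCh38. The authors deposited TPM values per gene, scaled by transcript length and to the same sum in every library, and FPKM values, scaled by length and total reads. Both carry 2 decimals and no counts, so the count test of the study was replaced by a test on the log scale. The paper describes 3 independent experiments for the knock-down, and the tables used here hold 2 libraries per group. Samples were grouped by line and siRNA from the labels.

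Each table has 27567 entries, of which 92 spike-in entries at 0 were left out. Values were transformed to log2(TPM + 0.1) and fitted with limma (version 3.58.1, R 4.3.3; lmFit and eBayes with trend). The two-sided p-values were adjusted by Benjamini-Hochberg over genes above 0 TPM in at least 1 library of the fit. Lines were compared in a fit over all 8 libraries as 4 groups, and siPAI-1 with Scr in the 4 libraries of each line. The script was tested on simulated data. A fold is a ratio of mean TPM and carries no pseudocount, and a log2 difference is one of fitted means. Depth was estimated from FPKM steps of short genes with 1 transcript, in a search between 20 and 45 M reads; a depth 2 times as large would also give whole reads. Intervals on read numbers are exact Poisson intervals and cover counting error only. Positions and promoters are from RefSeq on GRCh38.p14; transcript lengths and overlaps come from GENCODE on GRCh37, with no coordinates taken from it. The alternatives were pseudocounts of 1 and 0.01 TPM, FPKM, rescaling by the median ratio, a filter at a mean of 1 TPM, eBayes without trend, a replicate block, the other set of libraries and each library left out. Summaries used Python 3.11.15.

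The members, the lists and the tests were chosen with earlier results of these data known. Named are the 10 members and from each list the 3 genes highest by level or with the smallest p, except where chosen after their values were seen. Some genes that the rule covers, the targeted gene among them, are not reported here. The libraries' replicate numbers were not used to pair them, except in the replicate block.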

Additional observations from a re-analysis of the deposited data

Results flagged for a closer look

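The difference of PDGFA between siPAI-1 and Scr had opposite signs in the lines: both siPAI-1 libraries were above both Scr libraries in UM-UC-3 and below both in RT112. The interaction was -0.71 on the log2 scale. It was past an unadjusted p of 0.05 and not past the adjustment over all genes (limma adjusted p = 0.73). Of the 8 fits that left out 1 library, only that without UM-UC-3 Scr replicate 1 stayed past the unadjusted 0.05. Of 7 other alternatives, 3 did not (the pseudocount of 1 TPM, eBayes without trend and the replicate block).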

How the results depend on the processing

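With 2 libraries per group, differences could be missed, and TPM carries no depth. Outside the alternatives, no difference between siPAI-1 and Scr passed the adjustment in either line, whatever its size. Among those that failed, 362 for UM-UC-3 and 409 for RT112 were at least 2-fold with a limma unadjusted p under 0.05. A missing call between the siRNAs thus does not by itself exclude a large change. The calls of PDGFB, ANGPTL4, THBS1 and EFNA1 between the lines held under every alternative run, in Scr and in siPAI-1. The number of members called between the lines was 8 in Scr and 7 in siPAI-1, against 10447 and 10572 of 20274 genes. Under the alternatives with 2 libraries in each group it was 7 to 9 in Scr and 5 to 9 in siPAI-1. The 9 of the filter at 1 TPM stood against 9029 and 9052 of 12803 genes. With 1 library left out, some calls were lost, as given above for each gene. For siPAI-1 against Scr in each line and for the interaction, no member was called under any alternative with 2 libraries in each group. Among all genes, those alternatives gave at most 1 call in UM-UC-3, 2 in RT112 and 7 for the interaction. The filter at 1 TPM removed PDGFB from the UM-UC-3 fit and ANGPTL4 from the RT112 fit. Over all genes, leaving out 1 library gave 0 to 123 interaction calls, the most without RT112 siPAI-1 replicate 2. VEGFA lost its Scr call with eBayes without trend (adjusted p = 0.0588), and NRP1 gained one with median-ratio rescaling (0.0491) and with the filter at 1 TPM (0.0387). In siPAI-1, that filter added VEGFB and VEGFC; the fit on 4 libraries lost NRP1 and NRP2. The cause was not tested.

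Directions changed only for differences that had not passed. VEGFC in UM-UC-3 turned to 0.01 with median-ratio rescaling, and the ANGPTL4 interaction to 0.05 with a pseudocount of 0.01 TPM. With 1 library left out, VEGFB between the lines in Scr ranged from -0.13 to 0.03. For siPAI-1 against Scr in UM-UC-3 the ranges were -0.17 to 0.06 for VEGFA, -0.09 to 0.07 for VEGFB, -0.09 to 0.09 for VEGFC and -0.15 to 1.09 for EFNA1. In RT112 they were -0.04 to 0.11 for VEGFA, -0.10 to 0.30 for VEGFC, -0.16 to 0.23 for PDGFB, -0.07 to 0.97 for ANGPTL4, -0.50 to 0.28 for NRP1 and -0.61 to 0.08 for NRP2. For the interaction they were -0.02 to 0.21 for VEGFA, -0.10 to 0.30 for VEGFC, -0.68 to 0.36 for ANGPTL4, -0.69 to 0.30 for THBS1, -1.22 to 0.02 for EFNA1, -0.24 to 0.53 for NRP1 and -0.65 to 0.03 for NRP2.

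Same-numbered libraries did not deviate together (correlations of their deviations -0.046 to 0.056 over the 4 pairs of groups). Such correlations cannot exclude a shared experiment, and the labels do not give it. Outside the replicate block, the replicate number was used as a name only. With a replicate block in limma, 8 members were called between the lines in Scr, against 10298 of 20274 genes. In siPAI-1, 6 were called (NRP1 lost, adjusted p = 0.0546), against 10455 of 20274 genes. The other comparisons had 0 members called and 0 genes in all.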
